A study of Mus musculus with 9 samples.

Results

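Testis RNA of mice injected with AZ82, an inhibitor of the kinesin KIFC1, was compared with testis RNA of mice injected with PBS. The comparison covers 6 of the 9 libraries of the series and every gene in the table, 19991 in all, of which 15834 had enough counts to be tested. All animals were of the ICR strain, an outbred stock, and 8 weeks old. The Control group (3 libraries) received PBS and the AZ82 group (3 libraries) received AZ82 at 1 µM. The other 3 libraries, from mice given CW069 at 50 µM, were not compared. They entered the filter for low genes, the scaling of libraries, the estimate of spread and the mean that list levels are set against. The labels give no route, number of injections or time to collection, and do not say whether the samples of a group came from separate animals. The p-values therefore measure the spread between these samples, which may in part be technical.

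KIFC1 is a kinesin of the kinesin-14 family, a motor that walks toward the minus end of microtubules. In dividing cells it cross-links spindle microtubules and gathers centrosomes into poles. In male germ cells it takes part in acrosome formation and in the manchette, the skirt of microtubules that shapes the spermatid head. An inhibitor of this kind acts on the protein, so the mRNA of the target need not respond.

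Total counts per library ran from 13856070 to 15507318 in the 6 libraries. Defining markers of spermatogonia, spermatocytes, round and elongating spermatids, Leydig, Sertoli and peritubular cells were detected in every library, and those of the epididymis were at or near 0 (summed level 0.146 to 0.357 CPM, the unit of counts scaled for sequencing depth, here with TMM factors). Control 3 stood apart: the summed level of 7 elongating spermatid markers was 5253 CPM there and 12643 to 15843 CPM in the other 5 libraries. On the first principal component of the 6 libraries (29.9% of the variance), Control 3 lay at 38.5 and the others between -14.5 and -1.9. The number of genes that differed over 2-fold was 280 to 489 between Control libraries and 228 to 263 between AZ82 libraries. Between a Control and an AZ82 library it ran from 167 (Control 2 and AZ82 2) to 584 (Control 3 and AZ82 3). Results are given with all 3 Control libraries and, where they differ, without Control 3.

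No gene passed the test. The edgeR quasi-likelihood test with Benjamini-Hochberg adjustment called 0% of genes, with a smallest adjusted p of 0.0766, and again 0 without Control 3 (smallest adjusted p = 0.129). DESeq2 called 6 genes in the same libraries and limma-voom 1, and edgeR called 4 without Control 2. At an unadjusted p under 0.05 there were 640 genes higher after AZ82 (4.04% of those tested) and 759 lower (4.79%); without Control 3 there were 538 (3.36%) and 711 (4.45%). The split depends on scaling: 45.7% of these genes were higher with TMM factors and 13.7% with library size alone (255 higher, 1607 lower). Of the 640 higher genes, 323 had a p under 0.05 without Control 3 as well, and of the 759 lower ones 480, and none of either set changed sign. Single libraries moved these counts: without AZ82 1 there were 423 higher and 443 lower genes, without Control 2 999 higher and 813 lower, and without Control 1 845 higher and 502 lower. The groups did not overlap in 1053 higher (6.65%) and 1365 lower (8.62%) genes, 15.3% together. Without Control 3, when fewer libraries must be apart, the shares were 12.6% and 13.2%, 25.7% together.

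The differences were small. The median absolute log2 fold change of the 14965 genes whose mean level was 1 CPM or more was 0.11. In this set 299 genes had a fitted change over 1.5-fold and 44 over 2-fold, and in 18 of the 44 the groups did not overlap (8 higher, 10 lower). For 10901 of the 14965 genes (72.8%) the 95% interval of the change lay within 1.5-fold in both directions, and for 13978 (93.4%) within 2-fold. All fold changes below are log2 values of AZ82 over Control with their SE from the fit to all 9 libraries, and none of the genes named passed the test. Where no adjusted p is printed beside a gene it was 0.554 or above.

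The genes encoding the target family came first. Kifc1 stood at 8.42, 9.56 and 7.98 CPM in Control 1 to 3 and at 9.39, 9.57 and 9.02 CPM in AZ82 1 to 3. Its groups overlapped, with a log2 fold change of 0.11 ± 0.12 (edgeR adjusted p = 0.784), and 0.05 without Control 3. Kifc5b, whose sequence is so close to Kifc1 that reads of one may be counted for the other, stood at 9.73, 9.24 and 11.1 CPM and 10.5, 9.43 and 10.2 CPM. Kifc3, a kinesin-14 motor with roles at cell junctions, was at 62.95, 72.9 and 56.6 CPM in Control and 81.3, 73.4 and 72.1 CPM after AZ82 (0.24 ± 0.10, and 0.15 with a p above 0.05 without Control 3), and only AZ82 3 lay below the highest Control library. Kifc2 stood at 4.83, 4.94 and 6.45 against 5.31, 5.50 and 6.21 CPM. Of the 53 spindle and centrosome genes tested, 2 were higher and 0 lower at an unadjusted p under 0.05: Pcnt, a scaffold of the pericentriolar matrix (0.27 ± 0.09, and 0.17 without Control 3), and the dynein regulator Ndel1 (0.18 ± 0.07, and 0.12 without Control 3). Without Control 3 only Pcnt kept such a p, without AZ82 1 neither did, and without Control 2 there were 4 such genes. Their median was 0.0044, and -0.077 with library size scaling.

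Genes named for a small p or a large change, higher or lower, were chosen by a rule. It required groups that did not overlap and an unadjusted p under 0.05 with and without Control 3. Their separation is therefore not a finding. The genes with the smallest p on the higher side were led by Ttc22, which encodes a tetratricopeptide repeat protein. It was at 4.76, 3.47 and 3.72 CPM in Control and 9.02, 7.28 and 8.88 CPM after AZ82, a log2 fold change of 1.08 ± 0.16 (edgeR adjusted p = 0.317). Every AZ82 library lay well above every Control library. Zmiz2, a transcriptional coactivator, was at 257, 249 and 231 CPM in Control and 350.4, 322 and 317 CPM after AZ82 (0.42 ± 0.08). The class IIa histone deacetylase gene Hdac4 was at 26.6, 28.05 and 25.7 against 39.8, 36.6 and 32.5 CPM (0.44 ± 0.09), again without overlap. Both genes encode regulators of transcription.

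Fam166c, which encodes a protein of ciliary microtubules, was at 62.1, 74.1 and 52.4 CPM in Control and 94.7, 86.2 and 92.7 CPM after AZ82 (0.54 ± 0.11). Il11, a cytokine of the interleukin 6 family, was at 7.39, 7.96 and 6.12 against 12.01, 9.64 and 11.5 CPM (0.63 ± 0.14). The homeobox gene Hoxa3 was at 6.01, 6.29 and 7.72 against 8.59, 10.9 and 10.5 CPM (0.58 ± 0.14). None of the 3 overlapped between groups, which the rule required. The membrane protein gene Pdzk1ip1 (0.41 ± 0.10), the lipid transfer gene Uhrf1bp1 (0.25 ± 0.06), the synaptic scaffold gene Anks1b (0.67 ± 0.16), Morn2 (0.40 ± 0.10) and the RNA-binding protein gene Rbm47 (0.39 ± 0.10) followed. Larger ratios belonged to genes of low level. Nos1ap, an adaptor of nitric oxide synthase, was at 1.45, 0.513 and 0.732 against 2.04, 1.64 and 2.09 CPM (1.10 ± 0.36). S100a7l2, of the S100 calcium-binding family, was at 2.69, 3.66 and 1.73 against 5.31, 4.93 and 5.70 CPM (0.97 ± 0.26). The cytokine gene Tnfsf15 (1.01 ± 0.32) and the netrin gene Ntng2 (0.94 ± 0.25) also had groups apart, and Fos is described with the immediate early genes.

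On the lower side the smallest p among genes above 1 CPM belonged to Mtarc2, a mitochondrial molybdenum reductase. It was at 53.8, 53.5 and 53.3 CPM in Control, nearly the same in all 3 libraries, and at 34.6, 41.6 and 37.2 CPM after AZ82 (-0.50 ± 0.08; edgeR adjusted p = 0.392). Orc1, a subunit of the complex that marks replication origins, was at 9.18, 8.99 and 10.1 against 5.17, 5.78 and 5.12 CPM (-0.81 ± 0.15). The groups did not overlap in either gene, which the rule that chose them required. Ptgr1, which reduces prostaglandins and reactive aldehydes, was at 29.9, 27.2 and 31.1 against 20.2, 22.4 and 20.9 CPM (-0.47 ± 0.09). The copper transporter gene Slc31a1 was at 53.9, 50.8 and 58.5 against 42.9, 43.6 and 42.4 CPM (-0.34 ± 0.07). Peg10, an imprinted gene of retrotransposon origin, had -0.36 ± 0.08, the nucleosome-binding protein gene Hmgn1 -0.30 ± 0.07, the proteasome adaptor gene Ecpas -0.36 ± 0.08 and the surface protein gene Cd24a -0.79 ± 0.18.

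The largest lower ratios again came from genes of low level. Spp1, which encodes the matrix protein osteopontin, was at 5.25, 4.56 and 3.92 CPM in Control and 2.11, 1.79 and 0.794 CPM after AZ82 (-1.54 ± 0.28). Psg16, a pregnancy-specific glycoprotein gene, was at 1.52, 1.16 and 2.19 against 0.655, 0.286 and 0.433 CPM (-1.81 ± 0.46). The lysosomal collagenase gene Ctsk was at 3.31, 1.80 and 2.86 against 0.291, 1.14 and 1.23 CPM (-1.57 ± 0.42). In each of the 3 genes all AZ82 libraries lay below all Control libraries, which the rule required. Spink8, a protease inhibitor gene (-1.50 ± 0.47), and the metalloprotease gene Mmp28 (-1.09 ± 0.38) were the others, each with Control 2 closest to the AZ82 libraries. Slc1a7, a glutamate transporter gene with a mean below 1 CPM over the 6 libraries that was picked after its values were seen, had 27, 28 and 22 counts in Control 1 to 3 and 0, 1 and 0 counts in AZ82 1 to 3. Scaled for library size, its Control level was 71.0 times its AZ82 level, with an exact 95% interval of 12.4 to 2841 that covers counting error only (edgeR adjusted p = 0.0766). It was the 1 gene called by limma-voom, and DESeq2 called it too, with Ttc22, Zmiz2 and Fam166c higher and Mtarc2 and Spp1 lower.

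**Figure D1:**
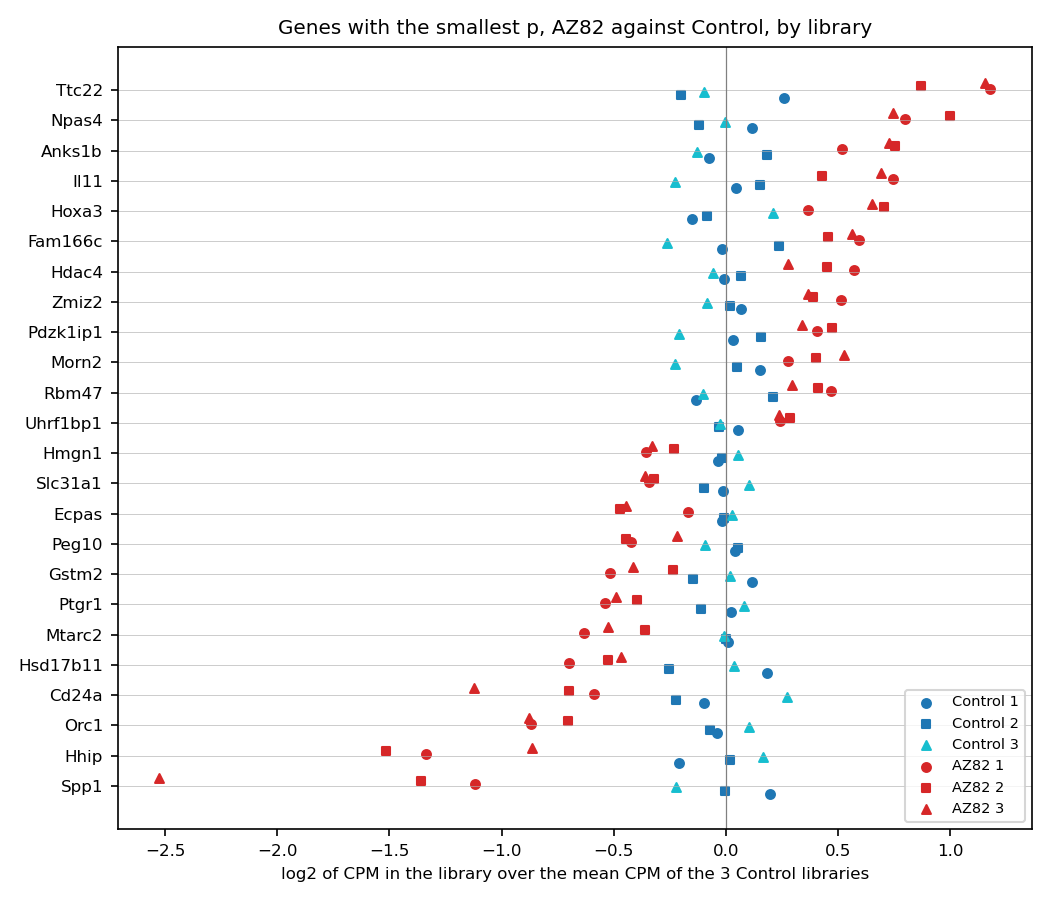
Expression of the 12 higher and 12 lower genes with the smallest p in each of the 6 libraries, as log2 of the CPM in a library over the mean CPM of the 3 Control libraries (horizontal axis). Blue points are Control 1 and 2, light blue triangles Control 3 and red points AZ82. In every gene all red points lie to one side of all blue points, which the rule that chose the genes required.

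The seminiferous epithelium was described from its stem cells outward, with gene lists for each stage. In a bulk sample fewer cells of a type and less RNA per cell cannot be told apart, and this holds for every list below. A list's level in a library is the median over its genes of the log2 CPM minus the gene's mean over the 9 libraries. Of 115 list members with an unadjusted p under 0.05, 71 (61.7%) kept one without Control 3; the named genes that did not are given with their list. Over all genes tested the median log2 fold change was -0.0010, with 7873 above 0 and 7961 below. At an unadjusted p under 0.05, 4.04% of all genes were higher and 4.79% lower.

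Spermatogonial genes had lower values after AZ82. Their list level was 0.048, 0.10 and 0.087 in Control 1 to 3 and -0.090, -0.074 and -0.031 in AZ82 1 to 3, so that each AZ82 library lay below each Control library. The median log2 fold change was -0.13 (-0.17 without Control 3), 23 of 30 genes were below 0, and 5 (16.7%) were lower and 1 higher at an unadjusted p under 0.05, against 4.79% and 4.04% of all genes. Stra8, which germ cells need to enter meiosis, was at 10.5, 12.2 and 11.8 CPM in Control and 8.59, 9.85 and 9.24 CPM after AZ82 (-0.32 ± 0.11). Sohlh2, a transcription factor of differentiating spermatogonia, was at 16.4, 14.4 and 19.4 against 11.1, 11.9 and 15.01 CPM (-0.40 ± 0.17). The RNA-binding protein gene Dazl was at 156, 160.0 and 170.5 against 142, 150.3 and 139 CPM (-0.18 ± 0.07). Stra8 and Dazl did not overlap between groups, whereas AZ82 3 lay within the Control range for Sohlh2. Ret, the receptor of the niche factor GDNF, had -0.37 ± 0.16 and Etv5, which acts below GDNF, -0.20 ± 0.08. Utf1, a chromatin factor of early spermatogonia below 1 CPM in most libraries, went the other way (0.90 ± 0.32). The stem cell gene Zbtb16 was at 9.66, 7.83 and 9.31 against 6.55, 8.50 and 6.78 CPM (-0.29 ± 0.14), while Id4 (-0.04 ± 0.06) and Gfra1 (-0.06 ± 0.18) were nearly level. The count of lower genes was 3 without Control 3, when Sohlh2, Dazl, Ret and Utf1 had a p above 0.05, and 2 without AZ82 1.

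Meiotic genes lay closer to 0. Of 44 prophase genes 3 were higher and 2 lower at an unadjusted p under 0.05, with a median of -0.054. Without Control 3 the counts were 1 and 2 and the median -0.032, with Rec8 and Hormad1 no longer under 0.05; without AZ82 1 they were 1 and 0. The cohesin gene Rec8 was at 75.9, 67.3 and 63.6 CPM in Control and 77.3, 88.5 and 74.97 CPM after AZ82 (0.22 ± 0.09). Hormad1, an axis protein of unsynapsed chromosomes, was at 98.1, 96.8 and 105 against 73.6, 95.8 and 82.3 CPM (-0.25 ± 0.10). Tex11, an X-linked recombination gene, was at 18.7, 15.9 and 16.8 against 12.2, 14.2 and 15.2 CPM (-0.30 ± 0.12). For Hormad1 and Tex11 the AZ82 libraries lay below the Control libraries. Sycp3, of the synaptonemal complex, was at 97.5, 113 and 109 and 100.05, 108 and 94.5 CPM, with overlap. The piRNA pathway list (0 of 27 in either direction; median -0.017) and the division list (1 higher, 1 lower of 40; median -0.033) lay near 0 and both changed sign without Control 3 (0.016 and 0.010). In the division list the S-phase cyclin gene Ccna2 was at 11.3, 11.2 and 13.9 against 9.39, 9.93 and 9.45 CPM (-0.34 ± 0.11). The phosphatase gene Cdc25c was at 17.3, 15.6 and 16.6 against 19.8, 20.8 and 18.5 CPM (0.26 ± 0.09). Without Control 3 the p of Ccna2 was above 0.05 (-0.23) and that of Cdc25c below. Replication genes had a median of -0.087 with 29 of 38 below 0; besides Orc1, the helicase subunit gene Mcm2 had -0.32 ± 0.11, while Rfc2 (0.22 ± 0.09) and Pola2 (0.20 ± 0.08) were on the higher side. Without Control 3, Mcm2 (-0.25) and Rfc2 (0.13) no longer had a p under 0.05.

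Postmeiotic genes had higher values after AZ82, and how much higher depended on Control 3. Abundant genes in general leaned the same way. Outside the acrosome, elongating spermatid, axoneme, manchette and ion channel lists, 2349 genes were at 100 CPM or more. Of these 74.1% were above 0, with a median of 0.070, and 9.66% were higher and 1.49% lower at an unadjusted p under 0.05. The elongating spermatid and sperm list had a median of 0.23 with all Control libraries and 0.057 without Control 3. Its levels were 0.067, 0.063 and -0.58 in Control 1 to 3 and 0.11, 0.14 and 0.14 in AZ82 1 to 3: even beside Control 1 and 2 the AZ82 libraries were higher, but by at most 0.079. Prm2, a protamine that packs sperm DNA, was at 4417, 3984 and 1174 CPM in Control and 3864, 4359.9 and 4689 CPM after AZ82 (0.43 ± 0.36, and 0.03 without Control 3). Prm1 (0.45 ± 0.31, and 0.10 without it), the transition protein gene Tnp1 (0.33 ± 0.28; -0.01) and the fibrous sheath gene Akap4 (0.28 ± 0.23; 0.01) were alike: Control 1 and 2 lay inside the AZ82 range, except Control 2 just below it for Prm1. Tnp2 stood at 2161, 2071 and 1020.1 CPM against 2448, 2416 and 3010.1 CPM, in every AZ82 library above every Control library (0.58 ± 0.23; 0.31 without Control 3). Pgam2, a sperm glycolytic enzyme, was at 521, 527 and 441 against 641, 591 and 623 CPM (0.32 ± 0.08; 0.24 without Control 3), and the testis kinase genes Tssk4 (0.20 ± 0.08) and Tssk1 (0.19 ± 0.08) also had groups apart, but without Control 3 neither kept a p under 0.05 (0.16 and 0.10). In all, 4 of 54 genes (7.41%) were higher at an unadjusted p under 0.05, against 4.04% of all genes. The count was 2 without Control 3 or any 1 AZ82 library, 17 without Control 1 and 16 without Control 2.

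The lists of earlier spermatids and of the tail rested less on Control 3. In the acrosome and round spermatid list 43 of 50 genes were above 0 with a median of 0.12 (0.077 without Control 3), and 9 of them were higher and 0 lower at an unadjusted p under 0.05; without AZ82 1 there were 3 and without AZ82 2 there were 2. The acrosomal protease gene Pcsk4 was at 146, 163 and 139.9 CPM in Control and 187, 178 and 171 CPM after AZ82 (0.25 ± 0.08). Sun5, which joins head and tail, was at 125, 133 and 112 against 148, 159 and 134 CPM (0.25 ± 0.09). The syntaxin gene Stx2 was at 61.4, 60.5 and 61.1 against 67.7, 71.8 and 66.4 CPM (0.17 ± 0.06). Dcst2, needed for sperm to fuse with the egg, was at 90.98, 81.1 and 91.2 against 113, 104 and 92.5 CPM (0.23 ± 0.09). In all 4 the AZ82 libraries lay above the Control libraries, and the p of Sun5 was above 0.05 without Control 3 (0.19). Acr, the acrosin gene, was level at 185, 185 and 193 and 206, 187 and 189 CPM.

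Axonemal genes differed little and nearly all to one side. Abundant genes outside the postmeiotic lists leaned to the same side (74.1% above 0, 9.66% higher at an unadjusted p under 0.05). Of 71 axonemal genes 65 (91.5%) were above 0, with a median of 0.11 and 0.11 without Control 3. At an unadjusted p under 0.05, 7 (9.86%) were higher and 0 lower, and 12 without Control 3 or without AZ82 3, but 3 without AZ82 1 and 4 without AZ82 2 or Control 2. The list level was -0.075, -0.077 and -0.017 in Control and 0.083, 0.048 and -0.018 after AZ82, and AZ82 3 lay just below Control 3. Cfap100, which serves inner dynein arms, was at 68.3, 63.7 and 63.5 CPM in Control and 78.7, 90.6 and 74.7 CPM after AZ82 (0.32 ± 0.08). Cfap45, a protein inside the doublet microtubules, was at 200.2, 188 and 166 against 218, 243 and 213 CPM (0.28 ± 0.08). The tektin gene Tekt1 was at 248, 249.6 and 275 against 282, 281 and 353 CPM (0.25 ± 0.09). The dynein light chain gene Dnali1 was at 219, 217 and 219.7 against 261, 236 and 234 CPM (0.16 ± 0.06). The groups were apart in each of these genes. The manchette and intraflagellar transport list had 38 of 44 above 0 (median 0.087; 1 higher, 5 without Control 3). The level of this list was -0.020, -0.051 and -0.043 in Control and 0.055, 0.061 and -0.011 after AZ82, without overlap.

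Tubulin genes had a median of 0.14 (15 of 18 above 0; 2 higher at an unadjusted p under 0.05): the testis alpha tubulin gene Tuba8 was at 281, 293 and 196 CPM in Control and 354, 291 and 315 CPM after AZ82 (0.32 ± 0.13, and 0.15 without Control 3, when its p was above 0.05), with overlap. The count was 0 without AZ82 1 or AZ82 3 and 6 without Control 2. Reads of tubulin genes can be shared between near-identical copies. Sperm ion channel genes had a median of 0.087, 0.011 with library size scaling. Tmem249, of the CatSper channel, was at 55.1, 54.04 and 51.01 against 60.7, 65.4 and 60.5 CPM (0.22 ± 0.06). The KSper subunit gene Lrrc52 was at 28.9, 38.5 and 30.3 against 43.7, 41.3 and 36.7 CPM (0.32 ± 0.11), overlapping at Control 2 and with a p above 0.05 without Control 3. Testis histone genes had 0.089, and 0.034 without Control 3. With library size in place of TMM the medians of the acrosome, axoneme, manchette, channel, histone and tubulin lists stayed above 0 but at 0.0082 to 0.065.

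**Figure D2:**
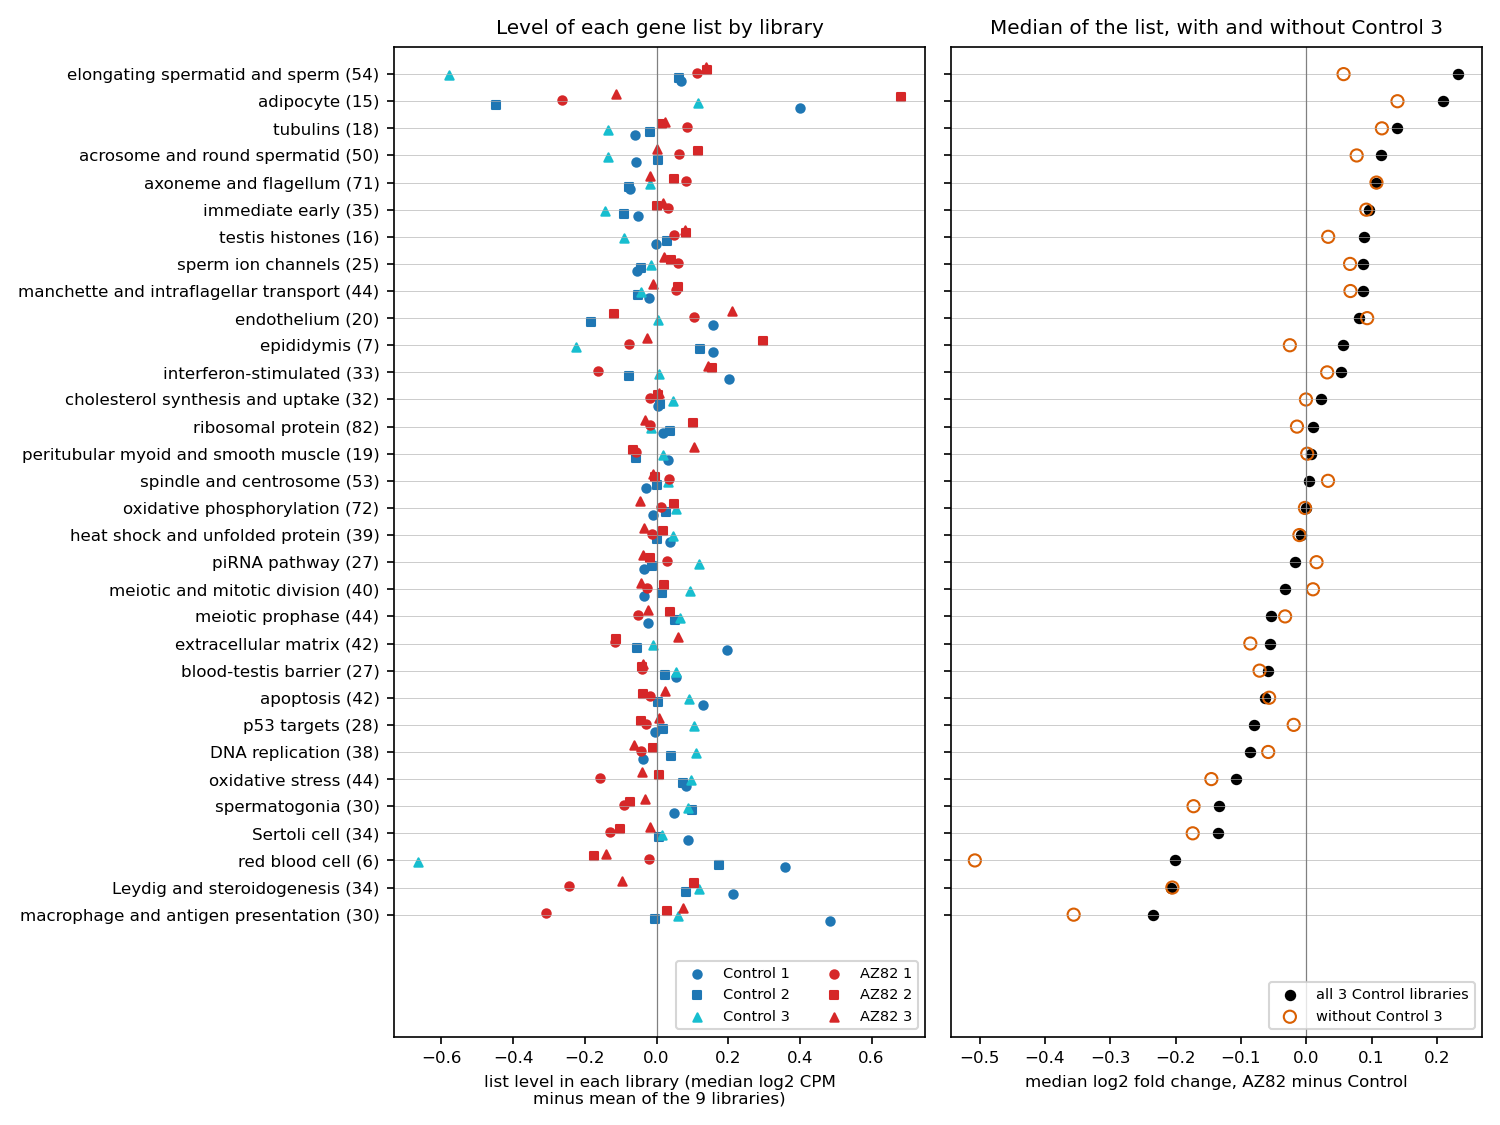
Left, level of each gene list with at least 5 tested members in the 6 libraries (median over genes of log2 CPM minus the mean of the 9 libraries), with the number of tested genes in brackets. Right, the list's median log2 fold change with all 3 Control libraries (filled) and without Control 3 (open). The elongating spermatid median moves from 0.23 to 0.057 without Control 3, whose level is -0.58, while the axoneme and Leydig medians hardly move.

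Genes of Leydig cells, the interstitial cells that make testosterone from cholesterol, had lower values after AZ82 in 2 of 3 libraries. The list had a median of -0.21 (-0.20 without Control 3), with 26 of 34 genes below 0. At an unadjusted p under 0.05, 9 (26.5%) were lower and 0 higher, against 4.79% and 4.04% of all genes. The level of the list was 0.21, 0.081 and 0.12 in Control 1 to 3 and -0.24, 0.10 and -0.10 in AZ82 1 to 3. AZ82 2 thus lay inside the Control range. The median was -0.09 without AZ82 1 and -0.30 without AZ82 2, and 4 and 13 genes were lower in those fits, with 5 without Control 1. The summed level of 7 Leydig markers was 1679.7, 1806 and 1754 CPM in Control and 1446, 1757 and 1475 CPM after AZ82.

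The pathway was followed step by step. Star, which brings cholesterol into mitochondria, was at 180.2, 218 and 197 CPM in Control and 139, 172 and 152 CPM after AZ82 (-0.36 ± 0.10). Cyp11a1, which cleaves the side chain, was at 373, 336 and 386 against 288, 321 and 308 CPM (-0.25 ± 0.08). Fdxr, which supplies it with electrons, was at 51.1, 48.2 and 51.9 against 38.9, 47.6 and 37.4 CPM (-0.29 ± 0.13). Star, Cyp11a1 and Fdxr were each lower in all 3 AZ82 libraries than in any Control library, though the p of Fdxr was above 0.05 without Control 3. Hsd3b1, the next dehydrogenase, was at 226, 199 and 230.0 against 131, 207 and 168 CPM (-0.37 ± 0.14), with AZ82 2 above the lowest Control library. Cyp17a1, which makes androgen precursors, was nearly level at 819, 943 and 819 against 798, 955 and 752 CPM (-0.04 ± 0.10), and so was the adult isoform gene Hsd3b6 (0.03 ± 0.15), which can share reads with Hsd3b1.

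Nr5a1, the nuclear receptor that drives steroidogenic genes, was at 51.4, 60.1 and 49.9 CPM in Control and 44.3, 41.3 and 45.3 CPM after AZ82 (-0.30 ± 0.08). Hsd17b11, a short-chain dehydrogenase gene, was at 21.7, 16.05 and 19.6 against 11.8, 13.3 and 13.9 CPM (-0.56 ± 0.12). Both were without overlap. The luteinizing hormone receptor gene Lhcgr (-0.33 ± 0.17) and the peptide hormone gene Insl3 (-0.25 ± 0.17) overlapped between groups. The estrogen sulfotransferase gene Sult1e1 was at 47.97, 34.8 and 28.999 against 14.8, 32.99 and 22.7 CPM (-0.66 ± 0.26), again with AZ82 2 inside the Control range. Genes of cholesterol synthesis and uptake had a median of 0.023 (0 higher, 1 lower of 32), which was -0.056 with library size scaling and -0.00041 without Control 3.

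Sertoli cells nurse the germ cells and seal the epithelium with the blood-testis barrier. Their list had 29 of 34 genes below 0 and a median of -0.13 (-0.17 without Control 3). At an unadjusted p under 0.05, 4 (11.8%) were lower and 0 higher, against 4.79% and 4.04% of all genes. The list level was 0.089, 0.0057 and 0.015 in Control and -0.13, -0.10 and -0.018 after AZ82, without overlap. Cst12, a Sertoli cystatin, was at 54.1, 58.1 and 54.7 CPM in Control and 35.3, 43.8 and 41.4 CPM after AZ82 (-0.47 ± 0.12). Kitl, which encodes stem cell factor, was at 38.2, 26.7 and 31.99 against 18.8, 30.2 and 14.9 CPM (-0.60 ± 0.27); AZ82 1 and 3 were low, AZ82 2 lay inside the Control range, and the p was above 0.05 without Control 3. Vimentin (Vim) was at 123, 102 and 113 against 93.6, 100.1 and 98.1 CPM (-0.21 ± 0.09). The lineage factors Sox9 (-0.06 ± 0.17) and Wt1 (-0.10 ± 0.09) overlapped, and the summed level of 7 Sertoli markers was 1076, 1083 and 1032 CPM against 950.1, 1019.6 and 1054 CPM.

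In the blood-testis barrier list 3 of 27 genes (11.1%) were lower at an unadjusted p under 0.05 and 0 higher. Over all genes 4.79% were lower and 4.04% higher, and among genes at 10 to 100 CPM 6.54% and 3.72%. The junction gene Ctnna1, alpha catenin, was at 65.3, 64.7 and 64.4 CPM in Control and 54.6, 56.8 and 56.3 CPM after AZ82 (-0.21 ± 0.07). Actr3, of the Arp2/3 actin complex, was at 45.6, 44.8 and 43.96 against 34.2, 38.2 and 40.8 CPM (-0.25 ± 0.08). The junctional adhesion gene F11r was at 29.7, 29.7 and 31.3 against 23.5, 24.5 and 28.8 CPM (-0.24 ± 0.08). The Control values of these genes were close to each other and above all AZ82 values. The list median was -0.059, with levels of 0.054, 0.025 and 0.053 against -0.040, -0.040 and -0.037, and 1 gene was lower without AZ82 1 and 5 without Control 3.

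In the extracellular matrix list 7 of 42 genes (16.7%) were lower and 0 higher, against 4.79% and 4.04% of all genes. But the list level overlapped, at 0.20, -0.055 and -0.010 in Control and -0.12, -0.11 and 0.061 after AZ82. The median of -0.056 turned to 0.026 without Control 1. The count of lower genes was 3 without AZ82 1 and 4 without AZ82 2. Spp1, given above, had the smallest p of the list. The laminin gene Lama1 was at 40.2, 41.6 and 41.04 CPM in Control and 32.5, 34.8 and 35.4 CPM after AZ82 (-0.26 ± 0.06). Its partner chain gene Lamb1 was at 37.4, 35.5 and 33.1 against 30.1, 29.4 and 29.9 CPM (-0.24 ± 0.07). Both had groups apart. Fibronectin (Fn1) was at 52.8, 49.2 and 53.3 against 43.4, 46.7 and 46.5 CPM (-0.18 ± 0.06). Peritubular myoid genes had a median of 0.0066 (-0.072 with library size scaling), and the smooth muscle actin gene Acta2 was level (-0.01 ± 0.07). Ptch1, a hedgehog receptor gene, was at 23.7, 17.5 and 21.1 against 16.8, 17.6 and 14.4 CPM (-0.35 ± 0.13). Hhip, which encodes a decoy that binds hedgehog ligands, was at 1.59, 1.86 and 2.06 against 0.728, 0.643 and 1.01 CPM (-1.20 ± 0.26). Hhip did not overlap between groups, and Ptch1 did.

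Blood and immune genes varied between single libraries. Genes of macrophages and of antigen presentation had a median of -0.23 (-0.36 without Control 3) but -0.052 without Control 1, whose level was 0.48 against -0.31, 0.030 and 0.074 in AZ82 1 to 3. In this list 2 of 30 genes were lower (6 without Control 2, 5 without AZ82 3) at an unadjusted p under 0.05, the Fc receptor chain gene Fcer1g (-0.68 ± 0.23) and the chemokine receptor gene Ccr2 (-1.14 ± 0.44), whose p was above 0.05 without Control 3. The summed level of 5 macrophage markers was 75.03, 56.2 and 58.995 CPM in Control and 42.9, 49.6 and 57.7 CPM after AZ82; its part in the lower values of Spp1 and Ctsk, which macrophages can express, was not tested. Of 6 red blood cell genes tested 3 were above 0, and 1 was higher and 1 lower at an unadjusted p under 0.05. The list median was -0.20, but -0.51 without Control 3 and 0.081 without Control 1. The lower gene was the alpha globin gene Hba-a1, at 28.4, 33.9 and 21.2 CPM in Control and 14.1, 17.4 and 11.9 CPM after AZ82 (-0.94 ± 0.26). The beta globin gene Hbb-bs was at 40.8, 24.5 and 11.4 against 18.1, 18.1 and 17.5 CPM, with Control 3 lowest. Adipocyte genes had a median of 0.21, and -0.19 without AZ82 2, whose level was 0.68: Fabp4 was at 1.09, 12.6 and 1.88 CPM in the AZ82 libraries. Endothelial (0.080) and interferon-stimulated genes (0.054) had medians that turned below 0 without AZ82 3 or without Control 2, and the latter also without AZ82 2.

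Genes that handle oxidants and electrophiles leaned to lower values. Of 44 genes in the oxidative stress list 10 (22.7%) were lower and 1 higher at an unadjusted p under 0.05. Over all genes 4.79% were lower and 4.04% higher. The list median was -0.11 (-0.15 without Control 3). The levels were 0.082, 0.074 and 0.10 in Control and -0.16, 0.0079 and -0.040 after AZ82, without overlap. The count of lower genes was 3 without AZ82 1, 3 without Control 1, 6 without AZ82 3 and 10 without Control 3. Besides Ptgr1, the glutathione transferase gene Gstm2 was at 287, 238 and 267 CPM in Control and 184, 224 and 198 CPM after AZ82 (-0.39 ± 0.09). The ferritin light chain gene Ftl1 was at 129, 106 and 114 against 84.5, 96.97 and 98.6 CPM (-0.32 ± 0.09). Neither overlapped between groups. The mitochondrial peroxiredoxin gene Prdx3 was at 38.5, 37.2 and 37.7 against 27.9, 34.3 and 25.9 CPM (-0.36 ± 0.15). Thioredoxin (Txn1) had -0.36 ± 0.13, and both genes again had every AZ82 library below every Control library. Gsta3 (-0.35 ± 0.12), Gstm1 (-0.24 ± 0.09), Gsta4 (-0.17 ± 0.07), the peroxiredoxin gene Prdx2 (-0.23 ± 0.10) and the cystine transporter gene Slc7a11 (-0.30 ± 0.14) were the rest, with Prdx2 and Slc7a11 above 0.05 without Control 3. Gpx4, the selenoprotein that also builds the sperm midpiece, was the 1 higher gene, at 737, 759 and 584 against 845, 866 and 859 CPM (0.30 ± 0.10, and 0.19 without Control 3). The summed level of the Leydig markers was below every Control library in AZ82 1 and 3 (1446 and 1475 CPM). In AZ82 2 (1757 CPM) it was inside the Control range. The part of this level in the oxidative stress genes was not tested.

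No gene of the death and p53 lists was higher at an unadjusted p under 0.05 in the edgeR fit to all 9 libraries. Other fits gave a few. Without Control 2 there were 2 apoptosis genes and 1 p53 target higher. There were 2 higher p53 targets without AZ82 2, and 2 without the filter for low genes. Of 42 apoptosis genes 4 (9.52%) were lower (2 without AZ82 1), against 4.79% of all genes, with a median of -0.063. The death receptor gene Tnfrsf1a was at 20.6, 19.06 and 21.02 CPM in Control and 16.6, 16.5 and 17.4 CPM after AZ82 (-0.26 ± 0.09). The survival gene Bcl2l2 was at 34.6, 33.6 and 35.2 against 28.7, 29.1 and 31.8 CPM (-0.21 ± 0.07). Both had groups apart. Bcl2 was at 1.04, 1.35 and 0.998 against 0.0728, 0.428 and 0.866 CPM (-1.29 ± 0.50). The BH3-only gene Bcl2l11 was at 21.7, 9.69 and 14.6 against 9.24, 9.35 and 9.81 CPM (-0.69 ± 0.23), with Control 1 far above the rest. Bax overlapped (-0.11 ± 0.19). Trp53 itself had -0.17 ± 0.10. Its target Cdkn1a was at 6.90, 7.51 and 6.65 against 6.48, 5.93 and 7.505 CPM (-0.08 ± 0.14). Among 28 p53 targets, Ccng1 (-0.33 ± 0.09) and the repair gene Xpc (-0.31 ± 0.10) were the 2 lower genes (7.14%). The mitochondrial chaperonin gene Hspd1 was at 55.5, 60.5 and 53.3 against 44.6, 42.3 and 48.7 CPM (-0.32 ± 0.08), the 1 lower gene of 39 heat shock and unfolded protein genes (0 higher). Respiratory chain genes had a median of -0.00092 with 4 of 72 lower and 0 higher, which became 1 and 1 without Control 3 and 2 and 3 without AZ82 3. The median of ribosomal protein genes was 0.010, with 4 higher and 5 lower of 82; with library size scaling the ribosomal median was -0.066.

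Immediate early genes encode short-lived transcription factors and phosphatases that cells make within minutes of a stimulus; several answer to cyclic AMP, the messenger of luteinizing hormone in Leydig cells. Their list had 27 of 35 genes above 0, a median of 0.10 (0.092 without Control 3) and levels of -0.053, -0.091 and -0.14 in Control and 0.032, 5.4e-05 and 0.019 after AZ82, without overlap. At an unadjusted p under 0.05, 3 of 35 (8.57%) were higher and 0 lower, against 4.04% and 4.79% of all genes. Without Control 3 there were 2 higher, and the p of Dusp1 was above 0.05 (0.24). The first, Fos, a subunit of AP-1, was at 0.759, 0.706 and 0.931 CPM in Control and 2.04, 1.71 and 1.30 CPM after AZ82 (1.07 ± 0.28). The orphan receptor gene Nr4a1 was at 38.6, 41.01 and 32.9 against 49.8, 47.3 and 50.2 CPM (0.39 ± 0.11). The phosphatase gene Dusp1 was at 11.6, 11.5 and 8.31 against 13.9, 12.2 and 14.9 CPM (0.38 ± 0.14). In all 3 every AZ82 library lay above every Control library. Egr1 was at 5.45, 7.70 and 5.72 against 14.1, 16.8 and 6.21 CPM (0.97 ± 0.47), high in AZ82 1 and 2 and within the Control range in AZ82 3. Outside the list, Npas4, an activity-dependent transcription factor, was at 1.59, 1.35 and 1.46 against 2.55, 2.93 and 2.45 CPM (0.85 ± 0.20). Sik1, a kinase gene induced by cyclic AMP, was at 18.4, 18.998 and 15.6 against 24.9, 21.6 and 34.2 CPM (0.61 ± 0.15). Npas4 and Sik1 were named by the rule for higher genes, which required groups without overlap. The median of the list was 0.016 with library size scaling.

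The promoters of Fos, Nr4a1 and Dusp1 show the letters through which CREB, the cyclic AMP response factor, is known to act on such genes. The sequences, from RefSeq on GRCm38.p6, run from 250 bases before to 50 after the start of the gene, 5′ to 3′ on the gene's strand: Fos at chr12:85473640-85473939 (+), Nr4a1 at chr15:101266596-101266895 (+) and Dusp1 at chr17:26508423-26508722 (-). Capitals mark TGACG, the core of the cyclic AMP response element, on either strand (CGTCA on the strand shown).
Fos: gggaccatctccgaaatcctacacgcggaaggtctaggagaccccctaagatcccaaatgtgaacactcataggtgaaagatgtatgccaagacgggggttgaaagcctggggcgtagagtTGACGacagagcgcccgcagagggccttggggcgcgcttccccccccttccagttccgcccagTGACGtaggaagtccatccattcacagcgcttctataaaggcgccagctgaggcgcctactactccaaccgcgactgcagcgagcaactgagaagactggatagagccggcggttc
Nr4a1: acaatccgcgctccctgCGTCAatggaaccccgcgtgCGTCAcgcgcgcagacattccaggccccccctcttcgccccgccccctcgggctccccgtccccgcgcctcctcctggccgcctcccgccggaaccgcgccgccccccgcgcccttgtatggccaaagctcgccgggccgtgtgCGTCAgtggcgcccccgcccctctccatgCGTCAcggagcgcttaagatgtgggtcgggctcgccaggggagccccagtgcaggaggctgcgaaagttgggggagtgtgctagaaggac
Dusp1: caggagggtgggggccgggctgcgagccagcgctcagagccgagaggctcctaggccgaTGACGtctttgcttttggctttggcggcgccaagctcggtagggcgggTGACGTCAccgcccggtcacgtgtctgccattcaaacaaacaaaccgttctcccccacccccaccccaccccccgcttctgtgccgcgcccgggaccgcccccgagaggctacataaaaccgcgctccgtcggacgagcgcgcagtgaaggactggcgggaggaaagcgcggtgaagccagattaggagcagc
The motif occurs 2 times in the Fos window, 4 times in that of Nr4a1 and 3 times in that of Dusp1, where 2 copies overlap in the full palindrome TGACGTCA. Of the 28 genes of the list found in the promoter table, with 37 promoters, 25 promoters (67.6%) held at least 1 copy, against 6837 of all 32851 promoters (20.8%). The promoters compared were not matched for base composition. Several genes of the list are known to answer to cyclic AMP, so its share describes how the list was made up. It covers the whole list, of which 3 of 35 tested genes were higher at an unadjusted p under 0.05. A link between the motif and the AZ82 values was not tested. A match of these letters is a description of the sequence, and no binding was measured.

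**Figure D3:**
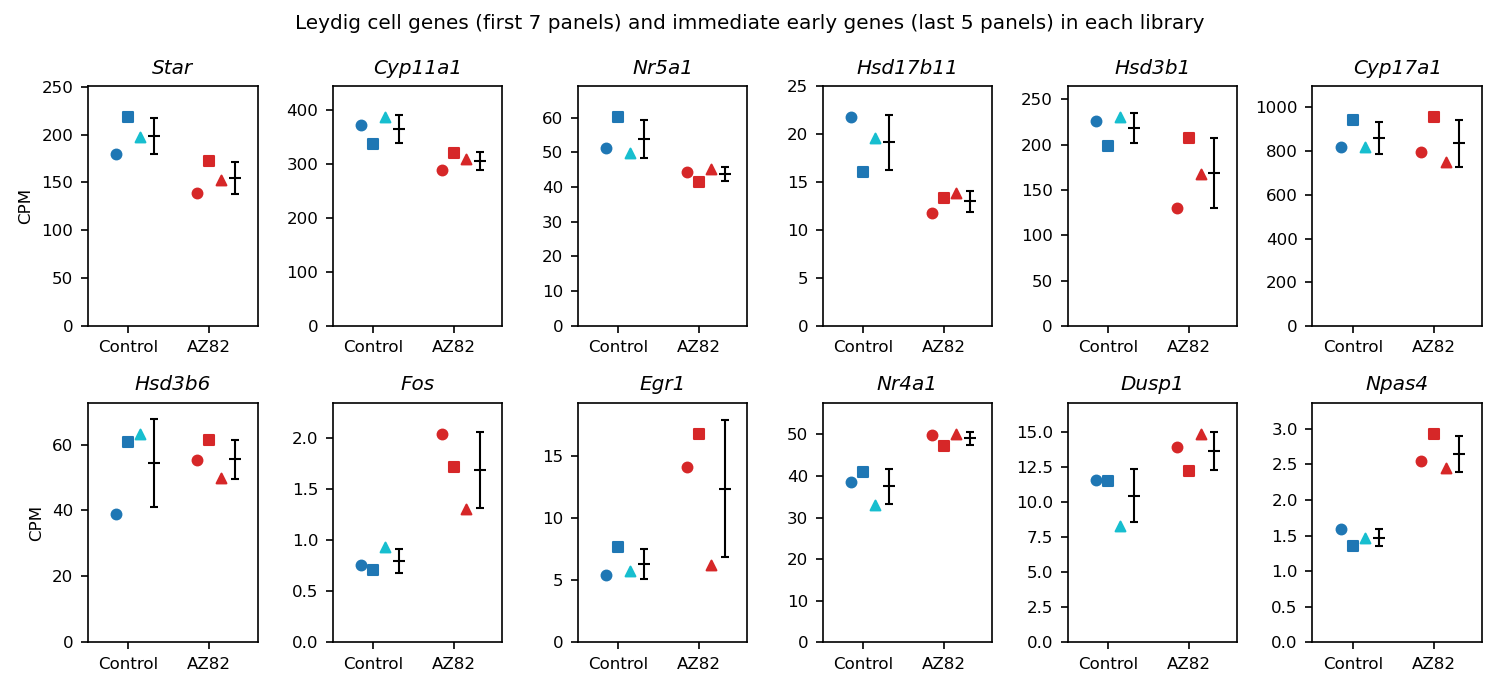
CPM of 7 Leydig cell genes and 5 immediate early genes in each library (circle, square and triangle for replicates 1, 2 and 3; blue Control, light blue Control 3, red AZ82), with the mean and SD of each group of 3 in black. Star, Cyp11a1 and Nr5a1 lie lower in every AZ82 library, and Cyp17a1 and Hsd3b6 overlap. Fos, Nr4a1, Dusp1 and Npas4 lie higher in every AZ82 library. Npas4 is outside the immediate early list and was named by a rule that required this.

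The share of higher and lower genes differed between levels of expression, a pattern looked for after the values were seen. Of 2518 genes at 100 CPM or more, 243 (9.65%) were higher and 35 (1.39%) lower at an unadjusted p under 0.05, with TMM factors. Of 7412 genes at 10 to 100 CPM the counts were 276 (3.72%) and 485 (6.54%), and of 5035 at 1 to 10 CPM 101 (2.01%) and 213 (4.23%). Under 1 CPM the counts were nearly even, 20 (2.30%) and 26 (2.99%) of 869, and the medians from the lowest level up were 0.0069, -0.037, -0.017 and 0.074. The 243 genes had log2 fold changes of 0.13 to 0.58, and 16 of them (6.58%) belonged to the postmeiotic lists, near the 6.71% of all 2518. The lean of the top group held without Control 3 (196 higher, 42 lower), but with library size scaling it turned (81 higher, 130 lower). Without AZ82 1 there were 112 higher genes in this group, without AZ82 2 there were 153 and without Control 1 there were 399.

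**Figure D4:**
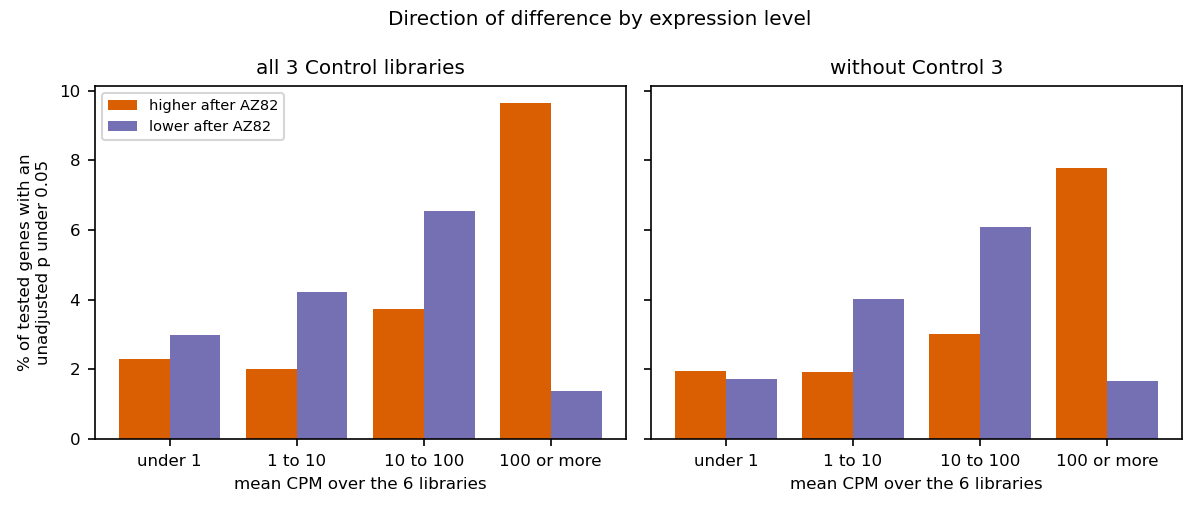
Share of tested genes (vertical axis, percent) higher or lower after AZ82 at an unadjusted p under 0.05, by mean CPM over the 6 libraries, with all Control libraries (left) and without Control 3 (right), both with TMM factors. At 100 CPM or more 9.65% were higher and 1.39% lower, the reverse of the lean at 1 to 100 CPM; with library size scaling the top group turns to 81 higher and 130 lower.

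Genes of the X chromosome leaned to lower values. In male germ cells the X is silenced during meiosis and stays largely repressed in spermatids, so that many X-linked transcripts of a testis come from spermatogonia and somatic cells. Of 694 X-linked genes tested, 500 (72.0%) were below 0, with a median of -0.13, while the medians of the 19 autosomes ran from -0.020 to 0.022. At an unadjusted p under 0.05, 71 (10.2%) were lower and 2 (0.288%) higher; on the autosomes the lower share was 2.93% to 7.52% and the higher share 1.82% to 6.08%. Of the 71, 3 (4.23%) belonged to any gene list, as did 37 of the 694 tested (5.33%). Without Control 3 the median was -0.15, with 83 lower and 3 higher. The lean rested in part on single libraries: the level of X-linked genes was 0.12, 0.071 and 0.0023 in Control 1 to 3 and -0.19, -0.017 and 0.016 in AZ82 1 to 3, where AZ82 3 lay above Control 3, and there were 22 lower genes without AZ82 1 and 34 without Control 1. With library size scaling there were 141 lower genes.

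The X-linked genes with the smallest p, named after their values were seen, were spread over functions. The formin gene Diaph2 was at 25.5, 21.6 and 23.1 CPM in Control and 16.2, 18.3 and 19.2 CPM after AZ82 (-0.39 ± 0.09). Slc25a5, the mitochondrial ADP/ATP carrier of somatic cells, was at 60.3, 56.03 and 53.1 against 45.9, 48.1 and 45.03 CPM (-0.28 ± 0.07). The ribosomal protein gene Rpl10 was at 40.9, 39.3 and 37.98 against 29.5, 32.5 and 33.7 CPM (-0.30 ± 0.08). All 3 had AZ82 libraries below every Control library. Rpl39, another X-linked ribosomal gene, was at 8.42, 6.35 and 7.65 against 4.22, 5.57 and 5.92 CPM (-0.51 ± 0.17). G6pdx, the first enzyme of the pentose phosphate pathway, was at 18.6, 18.5 and 22.2 against 13.4, 16.1 and 16.96 CPM (-0.35 ± 0.12). Both ribosomal genes have autosomal copies expressed in testis with which reads can be confused. Mageb4, a cancer-testis antigen gene, was at 2.97, 3.21 and 3.19 against 2.11, 2.21 and 2.09 CPM (-0.54 ± 0.16). The spermatogonia and Sertoli levels given above move in the same direction, and their part in the X-linked values was not tested.

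**Figure D5:**
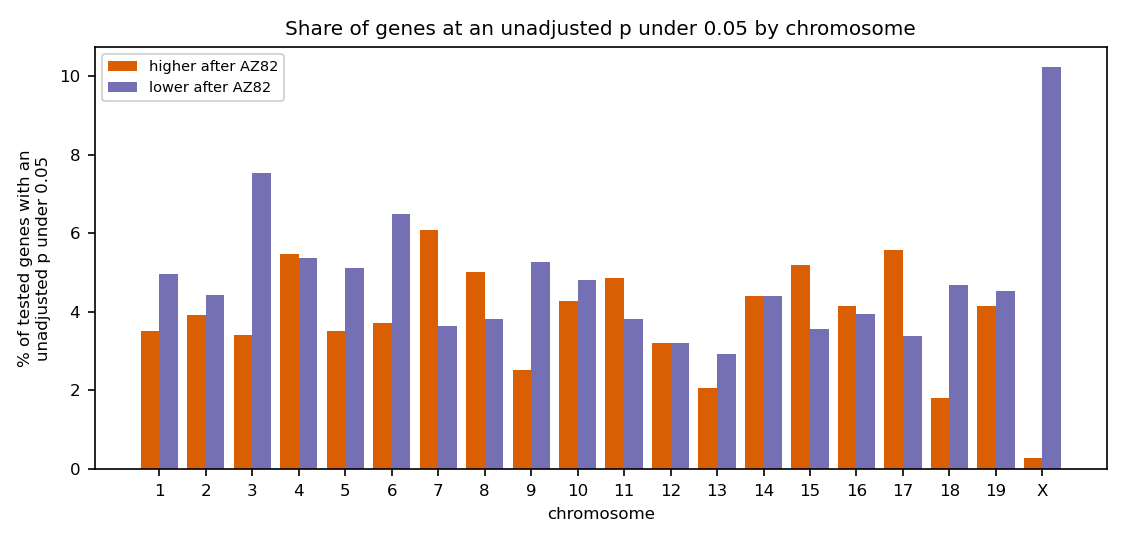
Share of the tested genes of each chromosome (vertical axis, percent) that were higher (orange) or lower (purple) after AZ82 at an unadjusted p under 0.05, with all 3 Control libraries. The X chromosome has 10.2% lower and 0.288% higher genes, and the autosomes 2.93% to 7.52% lower and 1.82% to 6.08% higher.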

How the data were processed

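Total RNA of mouse testis was sequenced as stranded mRNA libraries, and samples with an RNA integrity number of at least 7 were used, per the labels' protocols. The authors deposited a table of raw read counts per gene for 9 libraries (3 a group). Trimmomatic, HISAT2, HTSeq and the build GRCm39 are named in the submitters' processing notes; versions, annotation and the strand setting of the counting are not given in the sources used here. Counts of near-identical copies, such as Kifc1 and Kifc5b, Hsd3b1 and Hsd3b6, globins, tubulins and ribosomal proteins, are uncertain.

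The deposited counts were tested with edgeR 4.0.16 in R 4.3.3: low genes were removed with filterByExpr, libraries were scaled by TMM, a quasi-likelihood model was fitted to all 9 libraries for the AZ82 minus Control contrast, and p-values were adjusted by Benjamini-Hochberg over the 15834 genes tested, with a threshold of 0.05. CPM use TMM-scaled library sizes, and log2 CPM a prior count of 2. The steps were tested on simulated data. Alternatives were RLE or library size scaling, other filters, DESeq2 1.42.0, limma-voom 3.58.1, robust dispersions, the 6 libraries alone, a replicate block and leaving out each library.

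Genes were named by a rule: Kifc1 and Kifc5b, then, among genes at 1 CPM or more whose groups did not overlap and whose unadjusted p was under 0.05 with and without Control 3, the 12 with the smallest p, the 6 with the largest change and the 8 most stable to leaving out a library in each direction, of which part is printed, the 4 members of each of 33 lists with the smallest p, and known markers. Other members, the X-linked genes, Slc1a7 and the comparisons by level and by chromosome were chosen after their values were seen. The comparison and the lists were chosen with earlier results of these data known. Promoter sequences are from RefSeq (GRCm38.p6), matched by symbol. A few results are not reported here.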

Additional observations from a re-analysis of the deposited data

How the results depend on the processing

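The count of genes called at an adjusted p under 0.05 was 0, and it was 1 with library size scaling, 1 with limma-voom, 1 with robust dispersions, 6 with DESeq2, 1 at an adjusted p under 0.10 and 0 to 4 on leaving out 1 library, the 4 being without Control 2. Genes higher at an unadjusted p under 0.05 numbered 255 with library size scaling and 423 to 999 with 1 library left out. Lower genes numbered 1607 with library size scaling, 389 with DESeq2 and 443 to 813 with 1 library left out. The number of genes without overlap between AZ82 and Control was 3655 to 4465 with 1 library left out, since fewer libraries must be apart.

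Library size scaling moved the median of all genes by -0.08. With it the list medians were -0.21 for spermatogonia, -0.14 for meiotic prophase, -0.098 for the piRNA pathway, -0.12 for division, -0.077 for the spindle, -0.17 for DNA replication, 0.040 for the acrosome, 0.025 for the axoneme, 0.0082 for the manchette, 0.011 for ion channels, 0.065 for tubulins and 0.013 for testis histones. They were -0.056 for cholesterol genes, -0.21 for Sertoli cells, -0.14 for the blood-testis barrier, -0.072 for myoid cells, -0.15 for apoptosis, -0.16 for p53 targets, 0.016 for immediate early genes, -0.097 for heat shock, -0.19 for oxidative stress, -0.083 for respiratory chain and -0.066 for ribosomal protein genes. In the AZ82 and Control libraries alone, without Control 3, the medians were 0.034 for the spindle, 0.067 for ion channels, 0.034 for histones, -0.00023 for cholesterol genes, -0.071 for the blood-testis barrier and -0.019 for p53 targets.

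With 1 library left out, medians ran from -0.17 to -0.12 for spermatogonia, -0.0066 to 0.033 for the spindle, 0.067 to 0.11 for ion channels, 0.034 to 0.13 for histones, -0.0065 to 0.050 for cholesterol genes, -0.11 to -0.034 for the blood-testis barrier, -0.18 to 0.026 for extracellular matrix, -0.097 to -0.019 for p53 targets, 0.091 to 0.14 for immediate early genes, -0.042 to -0.0082 for heat shock and -0.035 to 0.041 for respiratory chain genes. Higher genes at 100 CPM or more numbered 81 with library size scaling, 155 in the 6 libraries alone, 159 with the replicate block and 112 to 399 with 1 library left out. Lower X-linked genes numbered 141 with library size scaling, 39 with DESeq2 and 22 to 89 with 1 library left out. The cause of these shifts was not tested.

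Whether replicate numbers pair the samples is not known. The deviations of same-numbered Control and AZ82 libraries from their group means correlated at -0.15, 0.041 and -0.10. Those of differently numbered libraries ran from -0.069 to 0.17. Deviations within a group of 3 are tied to each other, so these values cannot exclude a pairing. With the replicate number as a block edgeR called 0 genes, with 516 higher and 578 lower at an unadjusted p under 0.05. With 3 libraries a group, the unadjusted 95% interval of a gene had a median half-width of 0.28 on the log2 scale (1.21-fold). Smaller changes of single genes were mostly not detectable. Larger ones could be missed too, since the test adjusted over all 15834 genes. Ttc22, at 1.08 ± 0.16, was not called (edgeR adjusted p = 0.317).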

Other observations

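A few genes outside the comparisons are given as values, chosen after they were seen. The 4 genes called without Control 2 had 1 Control library unlike the other 2. Gm6866 was at 0.414, 13.5 and 0.466 CPM in Control 1 to 3 and 9.46, 9.21 and 12.5 CPM in AZ82 1 to 3, and Gm5592 at 0.966, 7.51 and 0.931 against 3.86, 4.50 and 6.21 CPM. Gm2128 was at 1.59, 6.80 and 1.26 against 4.51, 4.21 and 5.56 CPM, and like both others it lies on chromosome 7. Control 2 was as high as the AZ82 libraries in all 3. Frzb, a secreted inhibitor of Wnt signals, was at 50.9, 14.2 and 36.9 against 18.5, 15.1 and 16.8 CPM, with Control 2 as low as the AZ82 libraries. Rpl26 was at 12.6, 10.8 and 14.4 CPM in Control and 12.7, 12.6 and 122 CPM after AZ82, a difference of 1 library. The dynein heavy chain gene Dnah8 was at 2722, 3644 and 6160.3 against 5843, 3642 and 3847 CPM, with Control 3 and AZ82 1 high.

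The surroundings of Ptgr1 on chromosome 4, also chosen after its values were seen, are given by the 50 nearest tested genes in the order of GRCm38.p6. Of these, 10 had an unadjusted p under 0.05 and 4 a p under 0.01, namely Ecpas, Dnajc25, E130308A19Rik and Slc31a1. Among the 10 genes with a p under 0.05, the groups also did not overlap in 8, lower after AZ82 in 7 and higher in 1. Over all genes tested, 4.04% were higher and 4.79% lower at an unadjusted p under 0.05. Dnajc25 was at 12.4, 10.8 and 15.5 against 9.60, 6.71 and 5.99 CPM (-0.79 ± 0.23). E130308A19Rik was at 20.6, 21.9 and 19.9 against 17.8, 15.8 and 17.6 CPM (-0.29 ± 0.09). Tnfsf15, which was higher after AZ82 (1.01 ± 0.32), has Slc31a1 among its own neighbours. Ttc22, Slc1a7 and Orc1, named above, lie on chromosome 4 too, at places 395, 416 and 426 among its 1003 tested genes. Ptgr1 is at place 263. Of the 50 neighbours of Slc1a7, 9 had an unadjusted p under 0.05 and 3 a p under 0.01, namely Ttc22, Tut4 and Orc1. Ttc22 was higher after AZ82, and Slc1a7, Tut4 and Orc1 were lower. At least 4 neighbours with a p under 0.01 were found for 230 of the 14732 genes with 50 neighbours (1.56%). The ICR mice were of an outbred stock, and the part of inherited differences between them was not tested.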
